A study of Mus musculus with 6 samples.

Results

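Elastic fibre and microfibril genes were followed in adrenal glands of female mice aged 2 months, 3 control and 3 mutant animals with 1 array each. The genes, chosen by symbol from a list of 9, were Eln, the microfibril-associated Mfap2, Mfap4 and Mfap5, the fibulins Fbln1, Fbln2, Fbln5 and Efemp2, and Emilin1. A gene with several probe sets was to be represented by the one selected on its mean signal over the 6 arrays, but each measured gene had a single probe set, so that this choice decided nothing. Of the 9 genes 8 were measured among 22206 probe sets, and Efemp2 was not analysed here. The list was drawn up with results of these arrays already known, so its counts and directions describe the genes and are not independent evidence.

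Control mice were Mst1 flox/flox;Mst2 flox/flox, and mutant mice carried Nr5a1-Cre in addition to the same floxed alleles. The control group therefore had the floxed genes without Cre, and no group had Cre without the floxed genes. Nr5a1 is expressed in steroid-producing cells, and the Cre transgene was meant to delete both Hippo pathway kinases, encoded by Stk4 and Stk3, from the adrenal cortex. RNA came from the whole gland, which also holds its connective tissue shell, vessels, chromaffin cells and any attached fat. The comparison asked how gene expression differed in glands whose cortex was to lack these kinases.

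Elastic fibres give stretch and recoil to vessels, skin, lung and the connective tissue shells of organs. Their core is cross-linked elastin, laid down on a scaffold of fibrillin microfibrils, while fibulins and lysyl oxidases guide and cross-link it. Microfibrils also store latent TGF-beta, and they exist without elastin in many tissues. Fibroblasts and smooth muscle cells make most of these proteins.

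Mfap2 and Mfap4 were the genes of this list with the highest values in mutant against control glands, and Mfap5 came next. Mfap2 was measured at 2.99-fold, Mfap4 at 2.50-fold and Mfap5 at 1.75-fold the control level. The other measured genes, elastin and 3 fibulins among them, lay between 0.888-fold and 1.23-fold. With limma over all probe sets, 0 of the 8 passed an adjusted p of 0.05, where 16 probe sets (0.0721%) did, and these 3 MFAP genes had an unadjusted p under 0.05.

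Mfap2 encodes MAGP-1, a small glycoprotein that binds fibrillin and active TGF-beta. Its log2 signal was 10.18, 9.36 and 9.86 in controls 1, 2 and 3 and 11.72, 11.46 and 10.96 in mutants 1, 2 and 3. Every mutant lay above every control, with a gap of 0.79 log2 units between the lowest mutant and the highest control. Means were 9.80 ± 0.41 and 11.38 ± 0.38 (SD, n = 3 each), which differ by 1.58 log2 units (SE 0.26, 95% interval 0.98 to 2.18, limma adjusted p = 0.0795). Leaving out each animal in turn gave changes from 1.36 to 1.79. In bulk tissue such a difference does not tell more cells of a type from more RNA per cell.

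The promoter of Mfap2 is shown because that gene had the largest change of the list. RefSeq windows of GRCm38.p6, from 250 bases before a start to 50 after it, were matched by symbol for 5 of the 8 measured genes, with 8 windows in all. TEAD factors, through which YAP and TAZ act, bind a core of letters GGAATG. This core was searched on both strands and is shown in capitals. Mfap2 has a pair of annotated starts whose windows overlap at an end, and a window of Fbln1, the gene with the lowest change of the list, is given for comparison.
Mfap2 window 1, chr4:141010174-141010473, plus strand: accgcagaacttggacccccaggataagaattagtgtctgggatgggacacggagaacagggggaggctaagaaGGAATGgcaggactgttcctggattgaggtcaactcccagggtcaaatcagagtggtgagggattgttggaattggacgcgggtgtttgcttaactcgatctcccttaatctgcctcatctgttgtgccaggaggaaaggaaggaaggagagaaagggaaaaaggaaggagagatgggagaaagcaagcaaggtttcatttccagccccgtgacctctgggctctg
Mfap2 window 2, chr4:141010431-141010730, plus strand: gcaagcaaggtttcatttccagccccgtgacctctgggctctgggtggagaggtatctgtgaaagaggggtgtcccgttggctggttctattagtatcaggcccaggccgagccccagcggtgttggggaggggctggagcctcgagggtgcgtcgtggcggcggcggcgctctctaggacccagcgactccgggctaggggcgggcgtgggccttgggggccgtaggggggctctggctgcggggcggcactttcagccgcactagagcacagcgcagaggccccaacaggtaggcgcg
Fbln1 window 1, chr15:85205699-85205998, plus strand: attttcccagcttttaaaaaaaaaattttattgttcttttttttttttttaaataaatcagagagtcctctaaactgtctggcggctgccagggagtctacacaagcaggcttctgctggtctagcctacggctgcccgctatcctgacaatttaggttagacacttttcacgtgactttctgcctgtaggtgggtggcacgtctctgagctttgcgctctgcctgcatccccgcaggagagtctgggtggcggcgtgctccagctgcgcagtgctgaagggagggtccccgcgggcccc

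The core stood in 1 of the 8 windows, at 176 bases before the upstream start of Mfap2. Mfap4, Mfap5 and Eln had no window and were not searched. Of all 32851 windows that RefSeq gave, 14.7% held it, and 16.6% of the 27025 genes had it in at least 1 window. The TATA core, TATAAA on both strands, was in 0 of the 8 windows and in 13.6% of all windows. The core bound by SMAD factors, which carry TGF-beta signals, is so short (GTCT on both strands) that 88.0% of all windows held it. Window 2 of Mfap2 held 0 copies of GTCT and window 1 held 1, whereas the windows of Fbln1, Fbln2, Fbln5 and Emilin1 held from 2 to 6. A letter match in such a window is a description of the sequence and not a binding site.

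Mfap4 encodes a glycoprotein with a fibrinogen-related domain that binds elastin, collagen and fibrillin. Controls 1, 2 and 3 measured 11.48, 11.09 and 11.54 log2 units and mutants 1, 2 and 3 measured 13.03, 12.75 and 12.31. Here too the groups did not overlap, and 0.77 log2 units separated the lowest mutant from the highest control. Mutant and control means differed by 1.32 log2 units (SE 0.22, 95% interval 0.82 to 1.83, limma adjusted p = 0.0795), between means of 11.37 ± 0.24 and 12.69 ± 0.36 (SD, n = 3 each). Without single animals it ranged from 1.16 to 1.52. Ranked by unadjusted p over all probe sets, Mfap4 and Mfap2 were number 74 and number 75. Both passed an adjusted p of 0.05 in 2 of 15 alternative settings, and the range of adjusted p over the 15 was 0.0115 to 0.264 for Mfap2 and 0.00938 to 0.264 for Mfap4. Those settings were the removal of dim probe sets and a prior variance that follows the signal level and resists outliers.

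Mfap5 encodes MAGP-2, the relative of MAGP-1 that carries an integrin-binding motif. Its log2 signal was 9.15, 8.55 and 9.42 in controls and 10.24, 10.03 and 9.26 in mutants. Mutants 1 and 2 exceeded all controls, while mutant 3 lay below control 3, so the groups overlapped. The difference was 0.80 log2 units, with a 95% interval of 0.11 to 1.5 and SE 0.30 (limma adjusted p = 0.415). It was 1.09 without mutant 3 and 0.56 without control 2.

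**Figure D1:**
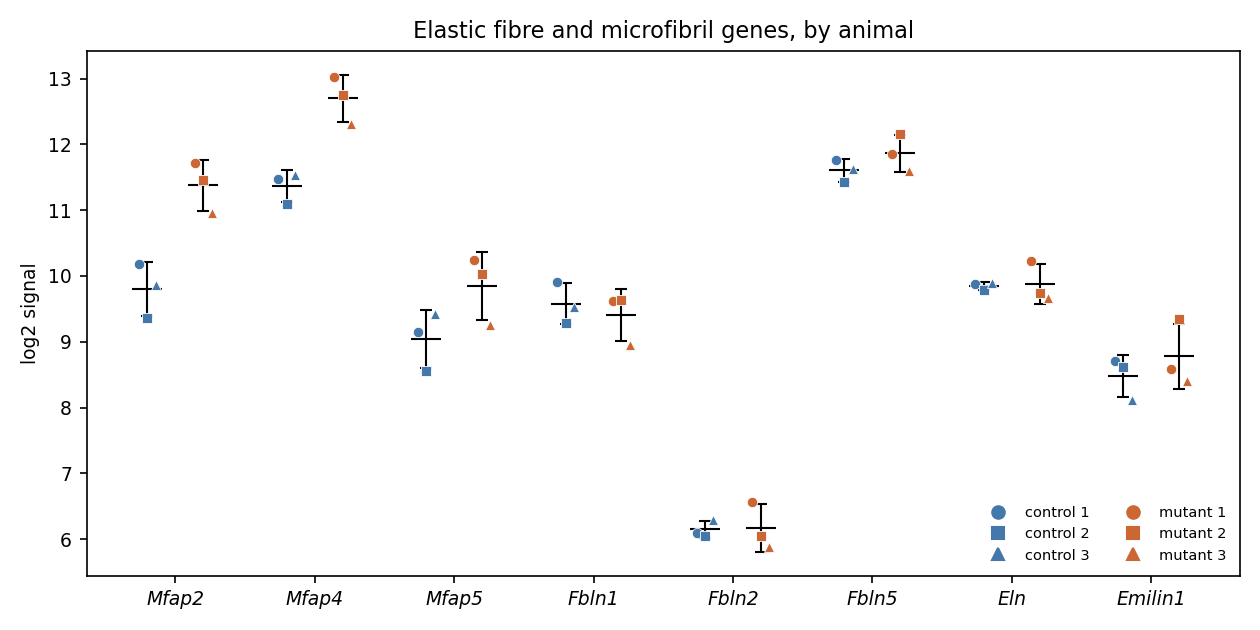
Log2 signal of each measured gene (x axis) in each animal, with controls in blue and mutants in orange, a symbol shape per replicate number, and the group mean with its SD as a black bar (n = 3). Mfap2 and Mfap4 are the genes whose mutant animals all lie above all control animals, and levels of different genes are not comparable on this scale.

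Elastin, the fibre core, was measured at nearly the same mean level in both groups. Controls measured 9.87, 9.78 and 9.90 log2 units for Eln, and mutants 10.23, 9.74 and 9.66. Mutant 1 was the highest animal, and the other mutants were below all controls. Means differed by 0.03 log2 units (SE 0.18, 95% interval -0.39 to 0.45, limma adjusted p = 0.976), and -0.15 without mutant 1. Its sign also turned when the arrays were shifted to a common median, so no direction is given. The control animals spanned 0.12 log2 units, the narrowest control range of the 8 genes, and the mutants 0.58.

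A difference between genes within an array does not change when all its log2 values are shifted by the same amount, though other normalizations can change it. For that reason the 3 MFAP genes were also set against Eln in each animal. The log2 difference between Mfap2 and Eln was higher by 1.55 in mutants than in controls, that for Mfap4 by 1.30 and that for Mfap5 by 0.78. In each of these the mutant animals all lay above the control animals. For Mfap5 the separation was narrow, with mutant 3 at -0.40 and control 3 at -0.47. Since the mean of Eln changed by 0.03, these 3 values are nearly the genes' own changes. The difference from Eln for Fbln1, Fbln5 and Emilin1 changed by -0.20, 0.24 and 0.28, and the animals of both groups overlapped. Fbln2 is left out here and in the differences from marker means, since it was not told apart from background. These comparisons were chosen with the values known and are given without a test.

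Among the fibulins, which bridge elastin, microfibrils and basement membranes, the groups overlapped for every measured gene. Fbln5, which carries elastin onto microfibrils and binds integrins, measured 11.76, 11.42 and 11.63 in controls and 11.86, 12.15 and 11.59 in mutants. The mutant mean was higher by 0.27 log2 units (SE 0.18, 95% interval -0.16 to 0.69, limma adjusted p = 0.688). Without mutant 3 it was 0.40, and the remaining mutants then lay above all controls. Fbln1, found in fibre cores and basement membranes, was the gene of this list with a mean below the control level. It measured 9.91, 9.29 and 9.53 in controls and 9.62, 9.64 and 8.95 in mutants (difference -0.17, SE 0.24, 95% interval -0.72 to 0.38, limma adjusted p = 0.858). Mutant 3 decided that sign, since without it the change was 0.06, and it was -0.005 without control 1.

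Fbln2, a fibulin of vessel walls that binds fibrillin and elastin, measured 6.10, 6.05 and 6.29 in controls and 6.57, 6.05 and 5.88 in mutants. Background probe sets, of which the arrays have 23, spanned 2.53 to 7.32, and Fbln2 was within that span in every animal and is not told apart from it. Its difference of 0.02 (SE 0.20, 95% interval -0.44 to 0.49, limma adjusted p = 0.982) had the opposite sign with quantile normalization or a common median, and it was -0.18 without mutant 1.

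Emilin1 encodes a glycoprotein at the border of elastin and microfibrils that restrains the processing of TGF-beta precursors. Controls measured 8.70, 8.62 and 8.11 log2 units and mutants 8.58, 9.34 and 8.41. Only mutant 2 exceeded all controls. The difference in means was 0.30 log2 units (SE 0.27, 95% interval -0.32 to 0.92, limma adjusted p = 0.764), and it was 0.02 without mutant 2 and 0.12 without control 3.

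Counted together, 7 of the 8 genes had a log2 change above 0, against 48.0% of all probe sets, and the median change was 0.28 against -0.01 over all probe sets. At an unadjusted p under 0.05, 3 were higher (Mfap2, Mfap4 and Mfap5) and 0 lower, where 5.42% of all probe sets were higher and 4.96% lower. Groups did not overlap for 2 genes, both higher in mutants, where 8.00% of all probe sets were higher without overlap and 8.36% lower. Since the list was made with these results known, nothing is read from its shares. Within the list, of the mutants, mutant 3 was the lowest for 8 of 8 genes and mutant 1 the highest for 5, and of the controls, control 2 was the lowest for 7. How often these animals held such places over all probe sets was not counted, so this is not read as a trait of these genes. Without mutant 3, the groups did not overlap for 4 genes, and without control 3 for 3. Leaving out an animal can only keep or raise this count. The share of all probe sets without overlap was not computed for the smaller groups, so nothing is read from the rise.

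Other genes of elastic fibre assembly and turnover were taken from 10 lists of 56 genes in all, of which 50 were measured. Of these, 0 passed an adjusted p of 0.05 in limma, and at an unadjusted p under 0.05 there were 9 higher (18.0%) and 2 lower (4.0%). The groups did not overlap for 9 genes higher in mutants and 2 lower, and the median log2 change was 0.10. Higher genes were more frequent than the shares of all probe sets given above, which was not tested. Since these lists too were chosen with earlier results of these data known, nothing is read from that. By their group means 20 of the 50 were as dim as background probe sets, 3 of those 9 higher genes among them.

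The cross-linking enzymes held the pathway gene of smallest p. Loxl3, a lysyl oxidase relative, measured 8.58, 8.41 and 8.70 in controls and 9.89, 9.89 and 9.44 in mutants, without overlap (log2 change 1.17, SE 0.18, limma adjusted p = 0.0621). It passed when dim probe sets were left out (adjusted p = 0.0297) and with a trend and robust prior (adjusted p = 0.0156). Loxl1, which cross-links elastin and binds fibulin-5, measured 10.59, 10.05 and 10.22 against 11.35, 11.15 and 10.68 (0.77, SE 0.22, limma adjusted p = 0.293). For Lox, the founding enzyme of the family, the difference was 0.26 (SE 0.18, limma adjusted p = 0.684), with overlapping groups.

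Of the proteins that make or load the microfibril, Fbn1 was not analysed here, and Fbn2, a fibrillin of development, lay within the background range (log2 change 0.48, SE 0.32, limma adjusted p = 0.676). Ltbp4, a latent TGF-beta binding protein that helps place fibulin-5 on microfibrils, measured 11.43, 11.29 and 11.40 in controls and 12.33, 11.94 and 11.70 in mutants. Its groups did not overlap (0.61, SE 0.19, limma adjusted p = 0.315). Ltbp2, a microfibril protein that does not hold latent TGF-beta, had a change of 0.62 (SE 0.19, limma adjusted p = 0.323), and Thsd4, an ADAMTS-like protein of microfibril assembly, one of 0.60 (SE 0.18, limma adjusted p = 0.313). Both lay within the background range in all animals. Of 8 ADAMTS and ADAMTS-like genes 5 lay within the background range, so no direction is counted for them. Among other fibulins and relatives of Emilin1, 5 of 7 had group means within the background range, and the bright Efemp1, or fibulin-3, was at -0.48 (SE 0.24, limma adjusted p = 0.543) with overlapping groups. The other genes that carry the name MFAP split, with 2 of 4 above 0 and 1 of the 4 within the background range, and Mfap3 had the smallest p among them (0.24, SE 0.16, limma adjusted p = 0.675).

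On the side of breakdown and cell contact, Mmp2, a gelatinase that cuts elastin and collagen, was the gene with the largest change of the 50. It measured 9.41, 9.13 and 9.55 in controls and 11.01, 10.99 and 10.16 in mutants, without overlap (log2 change 1.36, SE 0.25, limma adjusted p = 0.107). Mmp2 passed with a trend and robust prior (adjusted p = 0.0225). Of 7 elastin-degrading enzymes 4 lay within the background range, and the lysosomal protease Ctsl, named after its value was seen, was at -0.67 (SE 0.23, limma adjusted p = 0.368). Itga8, an integrin subunit that pairs with Itgb1, measured 8.42, 8.17 and 8.41 against 8.66, 9.22 and 8.86 (0.58, SE 0.18, limma adjusted p = 0.336). Of the elastin receptor complex, Neu1, a sialidase, was at -0.21 (SE 0.15, limma adjusted p = 0.689), with all mutants below all controls by a gap of only 0.01. The proton pump subunit Atp6v1e1, of the cutis laxa genes of secretion and metabolism, was at -0.38 (SE 0.16, limma adjusted p = 0.448), also without overlap. Among those cutis laxa genes 5 of 7 were below 0, where 48.0% of all probe sets were above 0, and nothing is read from that count.

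**Figure D2:**
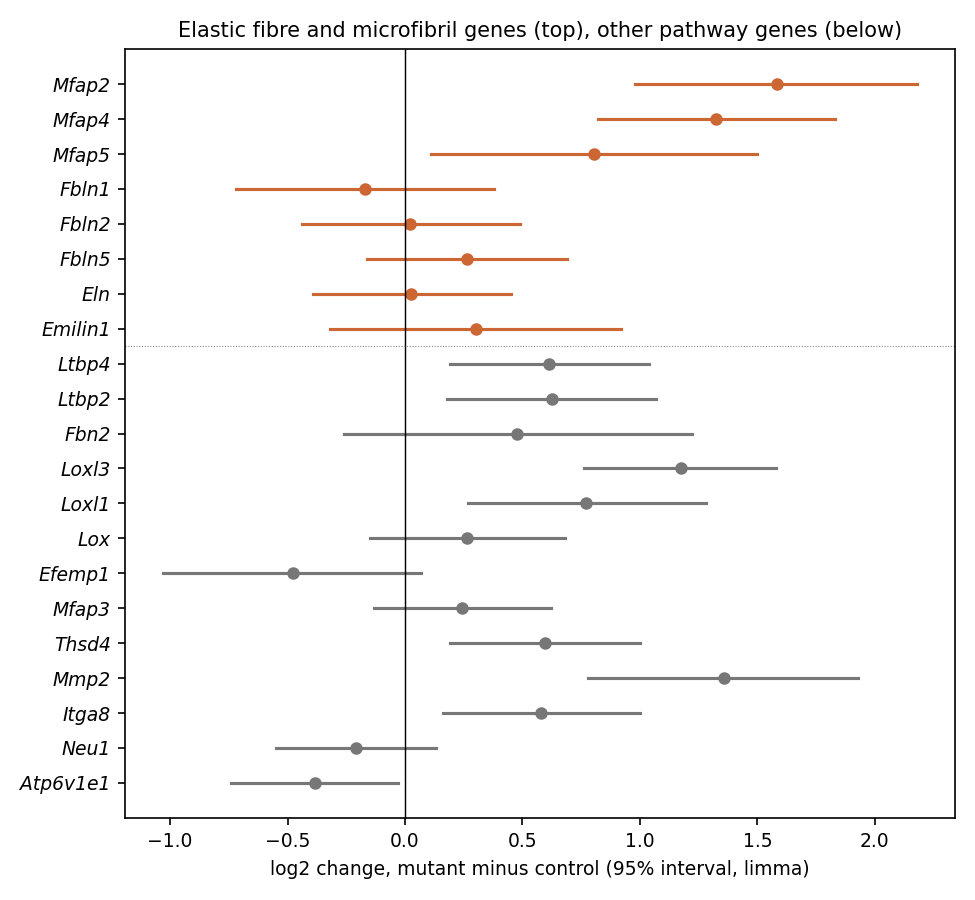
Log2 change, mutant minus control, with its 95% interval from limma (x axis) for the 8 measured elastic fibre and microfibril genes in orange and for 13 other pathway genes in grey. The intervals of Mfap2, Mfap4 and Mfap5 lie above 0 and those of the fibulins, Eln and Emilin1 span it; these intervals are not adjusted for the number of probe sets.

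Markers of other cell types the gland could hold were read beside the MFAP genes, and 0 of 76 passed an adjusted p of 0.05 in limma. Of the 38 in the 5 stromal and vascular lists (fibroblast, capsule, smooth muscle, pericyte and endothelial), 14 were higher (36.8%) and 0 lower at an unadjusted p under 0.05, against 5.42% and 4.96% of all probe sets. Of these 38, 13 were higher without overlap, against 8.00% of all probe sets, and Pi16, Dpp4, Myh11, Cnn1 and Plvap were below 0. Of the 38 in the other lists, 1 was higher and 1 lower at that p. The marker lists were also chosen with earlier results of these data known, so nothing is read from these shares. Fibroblast list means ran from 9.14 to 9.60 in controls and from 9.45 to 10.19 in mutants, so that they overlapped, with 7 of 9 markers above 0. Capsule list means ran from 9.15 to 9.71 and from 9.82 to 10.20, with 6 of 6 above 0. Smooth muscle (7 of 9 above 0) had 8.14 to 8.50 and 8.58 to 8.82, pericytes (6 of 6) 8.22 to 8.43 and 8.60 to 8.97, and endothelium (7 of 8) 12.35 to 12.60 and 12.82 to 12.89. By their group means 10 of the 38 stromal and vascular markers lay within the background range. They were Pi16 and Dpp4 of the fibroblast list, 2 of 6 capsule, 4 of 9 smooth muscle and 2 of 6 pericyte markers. Of the 4 mesothelial markers 3 did too, and the mesothelial list mean differed by -0.36. Adipocyte markers had the largest difference of any list, 0.92 higher for mutants (8 of 8 above 0), with overlapping groups. Changes in list means were 0.22 for macrophages (5 of 5 above 0), 0.00 for Schwann cells (1 of 2, all dim), -0.06 for steroidogenic cells (2 of 8), -0.34 for chromaffin cells (0 of 5) and -0.05 for kidney (3 of 6).

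Some single markers differed between the groups by more than their list means, and the 3 given here were named after their values were seen. The capsule marker Tcf21 measured 8.13, 7.48 and 7.71 in controls and 9.01, 9.67 and 9.04 in mutants, without overlap (log2 change 1.46, SE 0.24, limma adjusted p = 0.0782). That change lay between those of Mfap4 and Mfap2. Ptch1, the Hedgehog receptor, also of the capsule list, was at 1.07 (SE 0.28, limma adjusted p = 0.252), without overlap. Mylk, a myosin kinase gene of the smooth muscle list, measured 9.98, 9.85 and 10.51 in controls and 11.53, 11.07 and 10.76 in mutants, also without overlap (limma adjusted p = 0.227).

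List means, which average such genes with others that moved less, differed by 0.42 for fibroblasts and 0.62 for the capsule. Each of these means includes 2 markers within the background range. They were Pi16 (-0.31) and Dpp4 (-0.02) for fibroblasts, and Gli1 (0.62) and Wt1 (0.12) for the capsule. Without them the list means would differ more, and Mfap2 and Mfap4 would exceed them by less, which was not computed. Relative to the fibroblast mean in each array, Mfap2 was higher in mutants by 1.16 log2 units and Mfap4 by 0.90, and relative to the capsule mean by 0.96 and 0.71. In these 4 comparisons the mutant animals all lay above the control animals. Mfap5 was higher by 0.38 and 0.18, with overlap. Eln differed by -0.39 and -0.59, with every mutant below every control, and since its own change was 0.03 these values are nearly those of the list means with the sign turned. Fbln1 differed by -0.59, with overlap, and by -0.79, without overlap.

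Mfap2 and Mfap4 also stayed separate between the groups relative to the smooth muscle, pericyte and endothelial means, and overlapped relative to the adipocyte mean. The adipocyte mean was 8.29, 9.70 and 11.03 for controls 1 to 3 and 12.32, 10.08 and 9.38 for mutants 1 to 3. Fat markers thus varied more between animals of a group than either gene did. Averaged by group, the fat signal was higher in mutants by 0.92 log2 units. That difference was smaller than the SD within either group (1.37 for controls, 1.53 for mutants). Mutant 1, with the highest fat signal, also had the highest Mfap2, Mfap4, Mfap5, Fbln2 and Eln. Without that animal the log2 change of Mfap2 was 1.41 and that of Mfap4 1.16. Leaving out an animal cannot make separate groups overlap, so nothing is read from their separation here. How far cell composition contributes to the values of Mfap2 and Mfap4 was not tested beyond these differences.

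**Figure D3:**
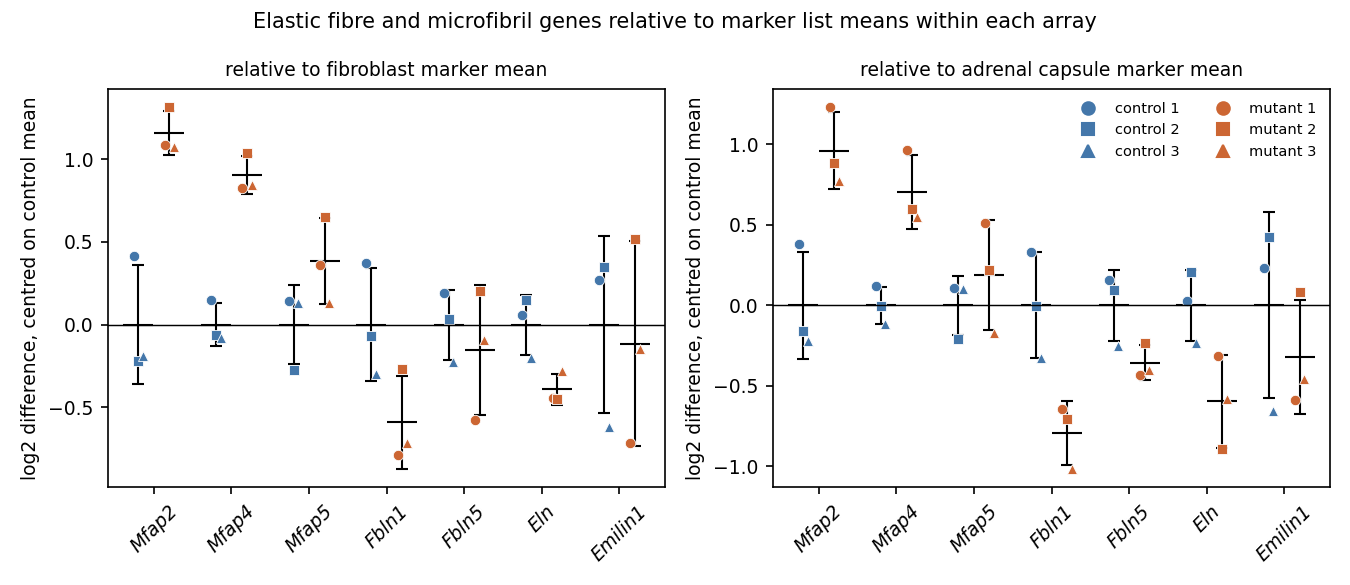
Log2 difference between each of 7 genes and the mean of the fibroblast markers (left) or capsule markers (right) in the same array, centred on the control mean, with each animal as a point, controls in blue, mutants in orange, and the group mean with its SD in black (n = 3). Mutant animals lie above 0 and above all controls for Mfap2 and Mfap4, and below all controls for Eln, whose own level differed by 0.03; Fbln2, within the background range, is not drawn.

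**Figure D4:**
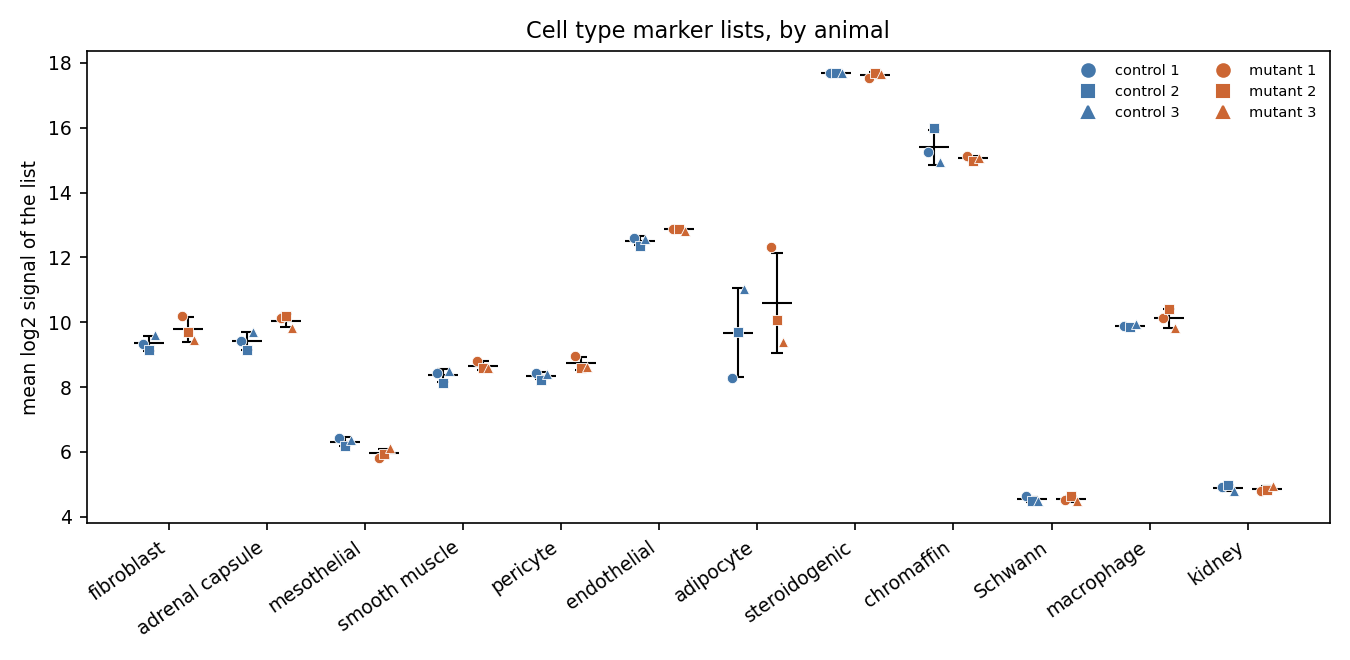
Mean log2 signal of each cell type marker list (x axis) in each animal, with controls in blue, mutants in orange, and the group mean with its SD in black (n = 3). The adipocyte list has the widest spread in both groups, and steroidogenic, Schwann and kidney list means are close together in all animals.

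The labelled tissue matched its defining markers, with 8 of 8 steroidogenic and 5 of 5 measured chromaffin genes above the background range and 5 of 6 kidney genes within it. The targeted Stk4 measured 8.32, 8.66 and 8.94 in controls and 8.14, 8.36 and 8.46 in mutants (log2 change -0.32, SE 0.19, limma adjusted p = 0.623). Whether these probes fall on the floxed exons is not stated by the labels, so the overlap of the groups does not check the genotypes. Stk3 was not analysed here. Mean signals of intron control probe sets, a sign of RNA quality, ran from 5.40 to 5.84 in controls and from 5.45 to 5.73 in mutants, and with them as a covariate Mfap2 changed by 1.57 and Mfap4 by 1.30.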

How the data were processed

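RNA of whole adrenal glands was hybridised to arrays with 28846 probe sets, per the labels' protocols after sense-strand cDNA synthesis, fragmentation and labelling. The deposited values are log2 signals, a scale read from their range. Per the submitters' processing notes the tool was Transcriptome Analysis Console 4.0. Background correction, normalization between arrays and genome build were not given in the sources used here. Array medians lay between 6.76 and 6.83, and no normalization was added.

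Control probe sets (6640) were left out, and 22206 were tested, 19572 of them with a gene symbol from a table of the platform's annotation. Mutant minus control was fitted over all 6 arrays in limma (version 3.58.1, under R 4.3.3) by lmFit and eBayes, two-sided, with Benjamini-Hochberg adjustment over 22206 probe sets and a threshold of 0.05. The code was tested on simulated data. Alternatives changed the normalization, filter, variance prior, weights, block, covariate and probe set rule, or left out each animal in turn. The number of animals limits precision. Named were all members, each pathway list's gene of smallest p, and Fbn1, Fbn2, Ltbp2, Ltbp4, Lox, Loxl1, Efemp1 and Stk4. Members, lists, tests and named genes were chosen with earlier results of these data known. Differences from marker list means and from Eln were added after the values were seen.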

Additional observations from a re-analysis of the deposited data

How the results depend on the processing

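Mfap2, Mfap4, Mfap5, Fbln5 and Emilin1 kept the sign of their change under all 15 alternatives. Mfap2 (1.58) and Mfap4 (1.32) passed when dim probe sets were left out and with a trend and robust prior, where 2 of the 8 genes passed in place of 0. Of the pathway genes 1 passed under the former (Loxl3) and 2 under the latter (Loxl3 and Mmp2), in place of 0. The count of all probe sets past the threshold, 16, was 38 with quantile normalization, 32 with a common median, 92 without dim probe sets, 175 with a trend and robust prior, 48 with array weights, 8 with the intron covariate, 41 over probe sets with a symbol, 1 without control 1, 2 or 3, 6 without mutant 2, and 14 or 15 without mutant 1 or 3. With the replicate number as a block the count was 1, and Mfap2 and Mfap4 had limma adjusted p of 0.144 and 0.173. Deviations of same-numbered animals from their group means correlated at -0.09, 0.08 and -0.07. These values gave no sign that the numbers pair the animals, but they cannot show that the animals were unpaired. Signs turned for genes near 0. Fbln2 was at -0.004 with quantile normalization, -0.005 with a common median, -0.013 with the intron covariate, and from -0.18 to 0.17 without single animals. Eln was at -0.001 with a common median and -0.001 with array weights, and from -0.15 to 0.14 without single animals. Fbln1 ranged from -0.313 to 0.057 without single animals. The number of the 8 genes higher without overlap was 2 to 4 without single animals, a count that leaving out an animal can only keep or raise. The cause was not tested. Fbln2 was not tested without dim probe sets, being dim itself. Averaging probe sets of a gene changed none of the 8 genes, since each had 1. Signals near background limit Fbln2, Fbn2, Ltbp2 and Thsd4.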
